A study of Homo sapiens with 6 samples.

Results

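The C2CD4 genes encode small proteins with a C2 domain, and 2 of them, C2CD4A and C2CD4B, lie beside VPS13C in a region of chromosome 15 that genetic studies have linked to type 2 diabetes. The set described here holds those 3 neighbours and the other family members, C2CD4C and C2CD4D, so 5 genes of the 60611 in the deposited count table, matched by gene symbol. They were selected on their measured difference between cytokine and vehicle libraries in this table, along with family and position, so that difference is given as a description with the error of the fit and without a test. The samples were 6 total RNA libraries of EndoC-BH5, a beta-cell line of wild-type genotype from the EndoC series, which derives from human fetal pancreas. In the 3 cytokine libraries the cells had received interferon gamma and interleukin 1b, and in the 3 vehicle libraries vehicle alone, with 3 batches of the line per group. The sources used here give no dose or exposure time, and a single line stands in for the human beta cell. The study asked what this pair of inflammatory cytokines, which immune cells release in the islet in type 1 diabetes, does to expression in the line.

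C2CD4A and C2CD4B were first described in endothelial cells as nuclear factors whose transcripts are raised by interleukin 1, and both are expressed in islet beta cells. In mice, beta-cell loss of C2cd4a impairs insulin secretion. VPS13C encodes a large lipid transfer protein that bridges the endoplasmic reticulum to late endosomes, lysosomes and lipid droplets, and loss of both its copies causes early-onset Parkinson's disease in humans. Less is known of C2CD4C and C2CD4D.

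The 3 neighbours are packed closely in GRCh38 (GENCODE 29 annotation). VPS13C (ENSG00000129003) runs on the minus strand at chr15:61852389-62060473. C2CD4A (ENSG00000198535) runs the other way, on the plus strand at chr15:62066977-62070917, and the VPS13C start lies at -6.5 kb from its own, where distances are counted from the C2CD4A start and negative ones are on the VPS13C side. C2CD4B (ENSG00000205502) is on the minus strand at chr15:62163535-62165283, and its start lies 98.3 kb from that of C2CD4A, so the pair point towards each other. C2CD4C (ENSG00000183186) is on chromosome 19 at 405438 to 409170, minus strand, and C2CD4D (ENSG00000225556) on chromosome 1 at 151837819 to 151840557, minus strand. Each of the 4 family genes has 1 annotated transcript of 2 exons.

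C2CD4A and C2CD4B are near copies. Their coding sequences, of 1110 and 1095 bases, were identical at 83.6% of aligned positions, whereas every other pair in the family was identical at 50.3% to 56.2%. The longest stretch that the coding sequences of the pair share is shown here with 20 bases on either side, because a read that falls wholly inside it cannot be assigned to one gene. The 96 shared bases are in capitals. They come from GENCODE 29 transcripts, with C2CD4A read on the plus strand at chr15:62067898-62068033 and C2CD4B on the minus strand at chr15:62164580-62164715.
C2CD4A: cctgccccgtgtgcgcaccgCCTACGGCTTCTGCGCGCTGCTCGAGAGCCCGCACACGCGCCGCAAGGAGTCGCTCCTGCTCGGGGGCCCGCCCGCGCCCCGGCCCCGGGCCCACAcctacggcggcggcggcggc
C2CD4B: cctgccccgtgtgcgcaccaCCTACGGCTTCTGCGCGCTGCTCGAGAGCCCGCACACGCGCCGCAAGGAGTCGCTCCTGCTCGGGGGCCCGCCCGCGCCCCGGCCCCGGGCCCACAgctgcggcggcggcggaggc
Of all 50-base windows of the C2CD4A transcript, 2.68% also occurred in C2CD4B, and of those of C2CD4B 5.95% also occurred in C2CD4A. No further window of either gene occurred in another annotated gene. At 100 bases no window was shared. Read length and the handling of reads with several matches are not given in the sources used here, so the split between the pair is uncertain. The shares hold for exact 50-base matches only and do not bound that uncertainty. C2CD4C and C2CD4D shared no 50-base window with any other annotated gene.

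The 250 bases before the RefSeq start sites of the 3 neighbours are shown because these genes were all higher in the cytokine libraries. Capitals mark matches, on either strand, to any of 5 motifs. The motifs were an NF-kappaB motif of GGG and CC with any 5 bases between, TTCNNNGAA (GAS, the interferon gamma activated site), an interferon response motif of GAAA and GAAA with any 2 bases between, TGANTCA (AP-1) and TATAA (TATA box). Each sequence runs 5′ to 3′ on the gene's own strand in GRCh38.p14, with C2CD4A at chr15:62066727-62066976, C2CD4B at chr15:62165286-62165535 and VPS13C at chr15:62060448-62060697.
C2CD4A: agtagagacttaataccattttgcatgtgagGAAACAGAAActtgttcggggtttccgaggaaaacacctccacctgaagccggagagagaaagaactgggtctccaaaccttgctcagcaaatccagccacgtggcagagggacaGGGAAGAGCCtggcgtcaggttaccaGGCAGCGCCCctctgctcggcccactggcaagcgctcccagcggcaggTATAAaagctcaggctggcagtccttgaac
C2CD4B: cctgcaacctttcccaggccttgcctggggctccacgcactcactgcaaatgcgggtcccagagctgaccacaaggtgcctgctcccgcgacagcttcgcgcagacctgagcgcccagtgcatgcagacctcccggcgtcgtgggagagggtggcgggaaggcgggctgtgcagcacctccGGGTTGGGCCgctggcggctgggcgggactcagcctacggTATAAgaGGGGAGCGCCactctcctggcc
VPS13C: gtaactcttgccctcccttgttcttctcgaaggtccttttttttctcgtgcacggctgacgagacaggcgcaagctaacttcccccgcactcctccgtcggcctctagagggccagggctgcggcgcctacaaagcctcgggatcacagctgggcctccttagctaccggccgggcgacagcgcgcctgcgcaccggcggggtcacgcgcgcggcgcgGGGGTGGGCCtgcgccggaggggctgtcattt
C2CD4A and C2CD4B both carried TATAA at nearly the same place, with its first base 30 and 29 bases before the start, and VPS13C had none. TATAA was found in 18.9% of 35116 human promoters of this length. C2CD4A alone of the 3 held the interferon response motif, as GAAACAGAAA beginning 219 bases before its start, which 3.0% of promoters hold in some form. All 3 held the NF-kappaB motif, but so did 54.4% of promoters. None of the 3 held TTCNNNGAA or TGANTCA in this window, against 6.6% of promoters for each. In C2CD4C the NF-kappaB motif was the only one of the 5 found. Of 3 RefSeq start sites of C2CD4D, 1 had the NF-kappaB motif and 1 had GAS, as TTCAGAGAA. A match is only a run of letters and was not tested as a binding site.

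Total counts ranged from 13689972 to 16175364 in the cytokine libraries and from 5871481 to 15894082 in the vehicle libraries, with vehicle replicate 1 the shallowest. Levels are given as CPM, which divides each count by its library's total and corrects for composition by TMM, with cytokine factors of 0.931 to 0.935 and vehicle factors of 1.06 to 1.08. All 8 listed beta-cell markers were tested, of which 3 rose and 5 fell, against 28.3% higher and 28.8% lower among all genes tested. INS was at 3641 CPM in cytokine and 4012 CPM in vehicle libraries, and IAPP, the other abundant islet hormone, at 8238 CPM in cytokine and 3998 CPM in vehicle libraries. MAFA and G6PC2 were low, at 1.46 and 6.63 CPM in cytokine libraries, against 5.16 and 42.0 CPM in vehicle libraries. Of 16 listed markers of other cell types, 9 were below the count filter. Those that were expressed included SST, at 568 CPM in cytokine and 555 CPM in vehicle libraries, GCG, at 25.7 CPM in cytokine and 44.5 CPM in vehicle libraries, and KRT19, at 135 CPM in cytokine and 161 CPM in vehicle libraries. Summed markers of mesenchymal, endothelial and immune cells were 22.1 to 23.2 CPM in cytokine and 5.88 to 6.96 CPM in vehicle libraries. That sum was nearly all CD68, at 21.4 CPM in cytokine and 5.14 CPM in vehicle libraries, while PTPRC, the defining immune marker, had at most 4 counts in any library. The part of such cells in the results was not tested. Whether the same batches were divided between the groups is not stated, and errors measure the spread between these libraries. In bulk RNA, more cells expressing a gene and more RNA per cell cannot be told apart.

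C2CD4A was the member that differed most. Its level was 153, 147 and 136 CPM in cytokine replicates 1, 2 and 3, against 13.7, 13.5 and 14.6 CPM in vehicle replicates 1, 2 and 3. Every cytokine library lay far above every vehicle library, and the vehicle libraries were tightly grouped. The means were 145 ± 8.47 CPM in cytokine and 13.9 ± 0.570 CPM in vehicle libraries (SD, n = 3 each), a 10.4-fold difference, or 3.37 on the log2 scale with SE 0.0673. These levels rested on 1865 to 2302 counts per cytokine library and 86 to 249 counts per vehicle library.

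C2CD4B followed the same course at a lower count. It had 61.9, 51.9 and 53.4 CPM in cytokine replicates 1, 2 and 3, against 8.10, 5.88 and 6.26 CPM in vehicle replicates 1, 2 and 3. The groups did not overlap, and vehicle replicate 1, with 51 counts, was the highest of its group. The means were 55.7 ± 5.40 CPM in cytokine and 6.75 ± 1.19 CPM in vehicle libraries (SD, n = 3 each), an 8.60-fold difference, or 3.10 on the log2 scale with SE 0.0987. With the counts of the pair summed, so that reads fitting both could not be misplaced between them, the log2 difference was 3.29 with SE 0.0633.

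VPS13C, on the other side of C2CD4A, differed less. It had 325, 355 and 291 CPM in cytokine replicates 1, 2 and 3, against 142, 140 and 147 CPM in vehicle replicates 1, 2 and 3. Cytokine replicate 2 was the highest and replicate 3 the lowest of the cytokine libraries, yet all lay well above the vehicle libraries. The fitted difference was 2.26-fold, or 1.18 on the log2 scale with SE 0.0554, between means of 324 ± 32.5 CPM in cytokine and 143 ± 3.51 CPM in vehicle libraries (SD, n = 3 each). Antisense genes annotated within VPS13C had at most 4 counts in any library. The libraries were made with a strand-specific kit, but the sources used here do not say whether the counting used strand, so reads of VPS13C and its antisense genes cannot be told apart.

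C2CD4C, away from the locus, differed little. It had 76.7, 71.4 and 76.3 CPM in cytokine replicates 1, 2 and 3, against 65.0, 58.2 and 59.1 CPM in vehicle replicates 1, 2 and 3. The groups did not overlap, but they lay close together. The fitted difference was 1.24-fold, or 0.32 on the log2 scale with SE 0.0547. With scaling by library size alone it was 0.11 on the log2 scale.

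C2CD4D was close to silent and fell below the count filter, so it was not tested. Its estimated count was 1 in each cytokine library, against 4, 3.25 and 3 in vehicle replicates 1, 2 and 3. Over the rounded counts, 3 in cytokine and 10 in vehicle libraries, the scaled ratio was 0.247 with a 95% exact conditional interval of 0.0438 to 0.961, which covers counting error only, leaves out the spread between libraries and is given as a description. The vehicle level in CPM was highest in the shallowest library, at 0.636 CPM, against 0.175 CPM in the deepest. Without the filter the fitted log2 difference was -1.93 with SE 1.00.

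**Figure D1:**
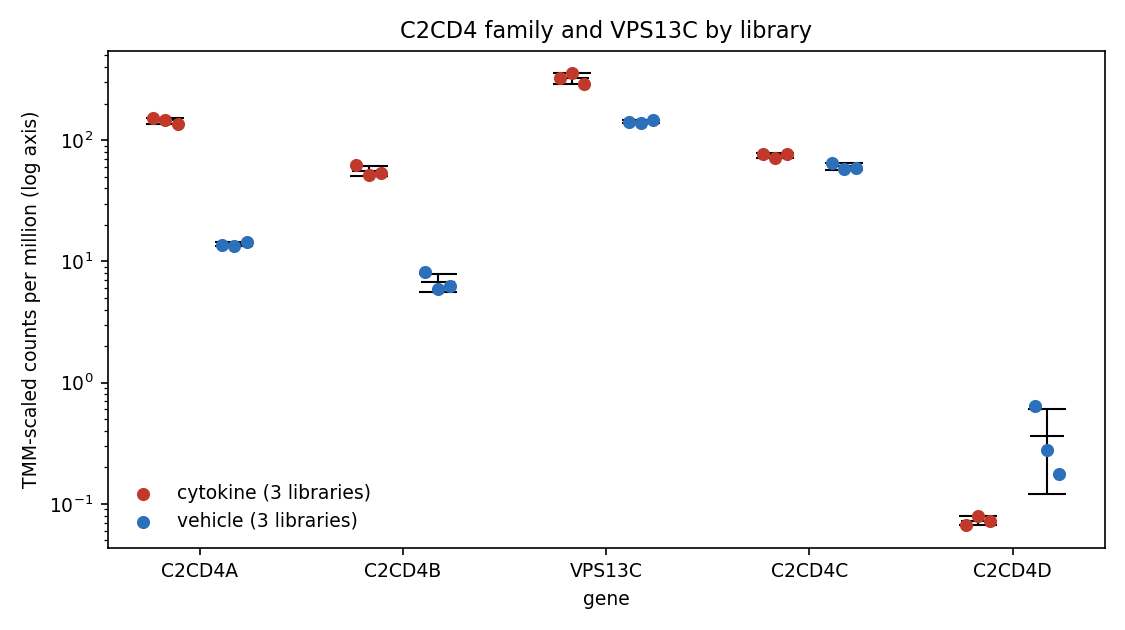
Level of each member in every library, in TMM-scaled CPM on a log axis, with cytokine libraries (red) left of vehicle libraries (blue); black marks are the mean and SD of 3 libraries. C2CD4A at 136 to 153 CPM in cytokine libraries stands clear of 13.5 to 14.6 CPM in vehicle libraries, while C2CD4C differs little and C2CD4D lies below 1 CPM.

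The fit across all genes called all 4 of the tested members higher in cytokine libraries, though C2CD4C was not called with scaling by library size alone. The same fit called 28.3% of the 17847 genes tested higher, 57.1% in either direction, with 5057 genes higher and 5142 lower (2980 and 8779 when scaled by library size alone, without TMM factors). Since the members were proposed from this comparison, nothing is read from the count of members called. By size of increase C2CD4A stood 212th and C2CD4B 241st among all genes tested, VPS13C 864th and C2CD4C 3752nd. Genes called higher by more than 3 on the log2 scale, as C2CD4A and C2CD4B were, made up 1.42% of those tested. The median log2 difference over all genes tested was -0.019. The log2 fold changes in the authors' deposited table were 3.38 for C2CD4A, 3.09 for C2CD4B, 0.32 for C2CD4C, 1.20 for VPS13C and -1.86 for C2CD4D.

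Levels per kilobase of annotated exon allow the genes to be set beside each other. In cytokine libraries C2CD4A was the highest, at 42.2 ± 2.46 CPM per kb, then C2CD4B at 35.3 ± 3.42, C2CD4C at 23.9 ± 0.950, VPS13C at 16.4 ± 1.65 and C2CD4D at 0.0413 ± 0.00342 (SD, n = 3 each). C2CD4A and C2CD4B stood next to each other with a narrow gap, since the lowest C2CD4A library had 39.6 and the highest C2CD4B library 39.2 CPM per kb. In vehicle libraries the order was different. There C2CD4C led at 19.4 ± 1.18 CPM per kb, followed by VPS13C at 7.25 ± 0.178, C2CD4B at 4.27 ± 0.753, C2CD4A at 4.04 ± 0.166 and C2CD4D at 0.206 ± 0.138 (SD, n = 3 each). The vehicle values of C2CD4A, 3.92 to 4.23 CPM per kb, lay within those of C2CD4B, 3.72 to 5.13, so those neighbours in the order did not differ beyond their spread. These lengths count every annotated exon of VPS13C, 19.7 kb, and would understate its level if few of its transcripts are used. The annotated lengths of C2CD4A and C2CD4B, 3.445 and 1.579 kb, differ mostly outside their coding sequences of 1110 and 1095 bases. The order of that pair therefore depends on this annotation. An effect of base composition on the levels was not tested.

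Ratios within a library do not depend on scaling. Per kb, C2CD4A over C2CD4B was 1.13, 1.30 and 1.17 in cytokine replicates 1, 2 and 3, against 0.773, 1.05 and 1.07 in vehicle replicates 1, 2 and 3. The ranges did not overlap, but the gap between the lowest cytokine and the highest vehicle library was small beside the spread in vehicle, where replicate 1 with its 51 C2CD4B counts was low. Per kb, C2CD4A over VPS13C averaged 2.58 ± 0.192 in cytokine and 0.557 ± 0.00978 in vehicle libraries (SD, n = 3 each). The transcripts of these close neighbours differed between groups by unequal amounts.

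**Figure D2:**
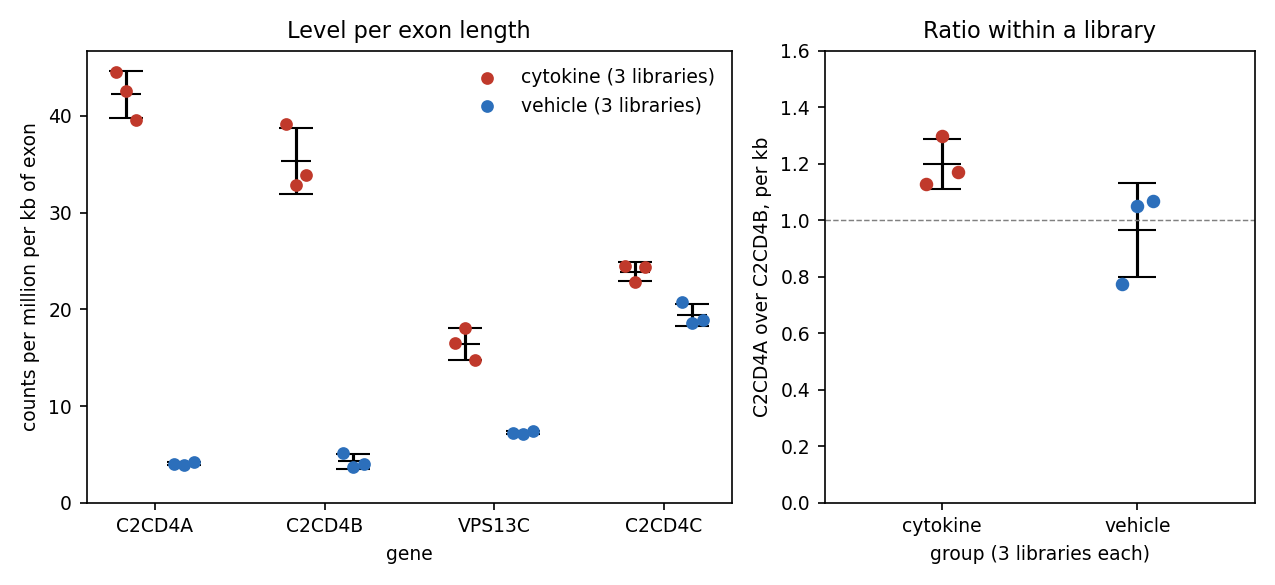
Left, CPM per kb of exon for the 4 tested members in cytokine (red) and vehicle (blue) libraries; right, the per-kb ratio of C2CD4A to C2CD4B within each library, with a dashed line at equality; black marks are the mean and SD of 3 libraries. The order of the genes differs between groups, with C2CD4C highest in vehicle libraries and C2CD4A highest in cytokine libraries.

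Other genes around the locus were taken by position alone, as every annotated gene within 1 Mb of the C2CD4A start. Of 34 such genes besides the members, 27 were below the count filter, with at most 9.5 counts in any library, and 11 of these had no count at all. All 7 tested ones rose, against 28.3% of all genes tested, with log2 differences of 0.23 to 1.54 and a median of 1.04. With scaling by library size alone 5 were called, all of them higher, against 2980 higher and 8779 lower of all 17847 genes tested. VPS13C-DT and AC126323.4 were near the count filter and passed it partly through their higher cytokine counts. The count of rises is thus partly set by the filter and is given as a description. None of the 7 tested neighbours reached the changes of C2CD4A or C2CD4B. For those below the filter the counts were too few to tell.

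VPS13C-DT, a transcript that starts beside VPS13C and runs towards C2CD4A, was scarce, at 1.46, 1.89 and 1.30 CPM in cytokine replicates 1, 2 and 3, against 0.794, 0.919 and 0.292 CPM in vehicle replicates 1, 2 and 3. Its log2 difference was 1.38 with SE 0.352 (edgeR, adjusted p = 0.0013). The call was lost with DESeq2 (adjusted p = 0.0540) and without vehicle replicate 3 (log2 difference 0.81, edgeR, adjusted p = 0.0764), and adjusted p began at 0.00054 over 13 alternatives. NPM1P47, a processed pseudogene on the minus strand 16.3 kb from the C2CD4A start and on the C2CD4B side of it, had 5, 7 and 5 counts in cytokine replicates 1, 2 and 3 and 0 in every vehicle library.

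Beyond C2CD4B lies a group of pseudogenes on the minus strand. AC126323.1 had 21.4, 20.3 and 22.0 CPM in cytokine replicates 1, 2 and 3, against 7.63, 6.80 and 7.49 CPM in vehicle replicates 1, 2 and 3, a log2 difference of 1.54 with SE 0.0952 (edgeR, adjusted p = 1.8e-14). GOLGA2P11 rose by 1.27 with SE 0.156 on the log2 scale (edgeR, adjusted p = 4.7e-08). AC126323.4, which lies inside GOLGA2P11 on the same strand, rose by 0.89 (edgeR, adjusted p = 0.022), a call that 6 of 12 alternatives lost. Pseudogenes like these share reads with their parent genes and each other, and their deposited counts were often fractional, so their values are uncertain.

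Farther out, RORA, a nuclear receptor whose start lies at -837.7 kb, had 65.6 ± 4.04 CPM in cytokine and 31.6 ± 1.07 CPM in vehicle libraries (SD, n = 3 each), a log2 difference of 1.04 with SE 0.0623 (edgeR, adjusted p = 9.4e-15). TLN2, which encodes the adhesion protein talin 2, rose by 0.43 (edgeR, adjusted p = 2.6e-06). TPM1, a tropomyosin gene at the edge of the window, rose by 0.23 (edgeR, adjusted p = 0.00025), but by 0.027 with scaling by library size alone (edgeR, adjusted p = 0.653).

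**Figure D3:**
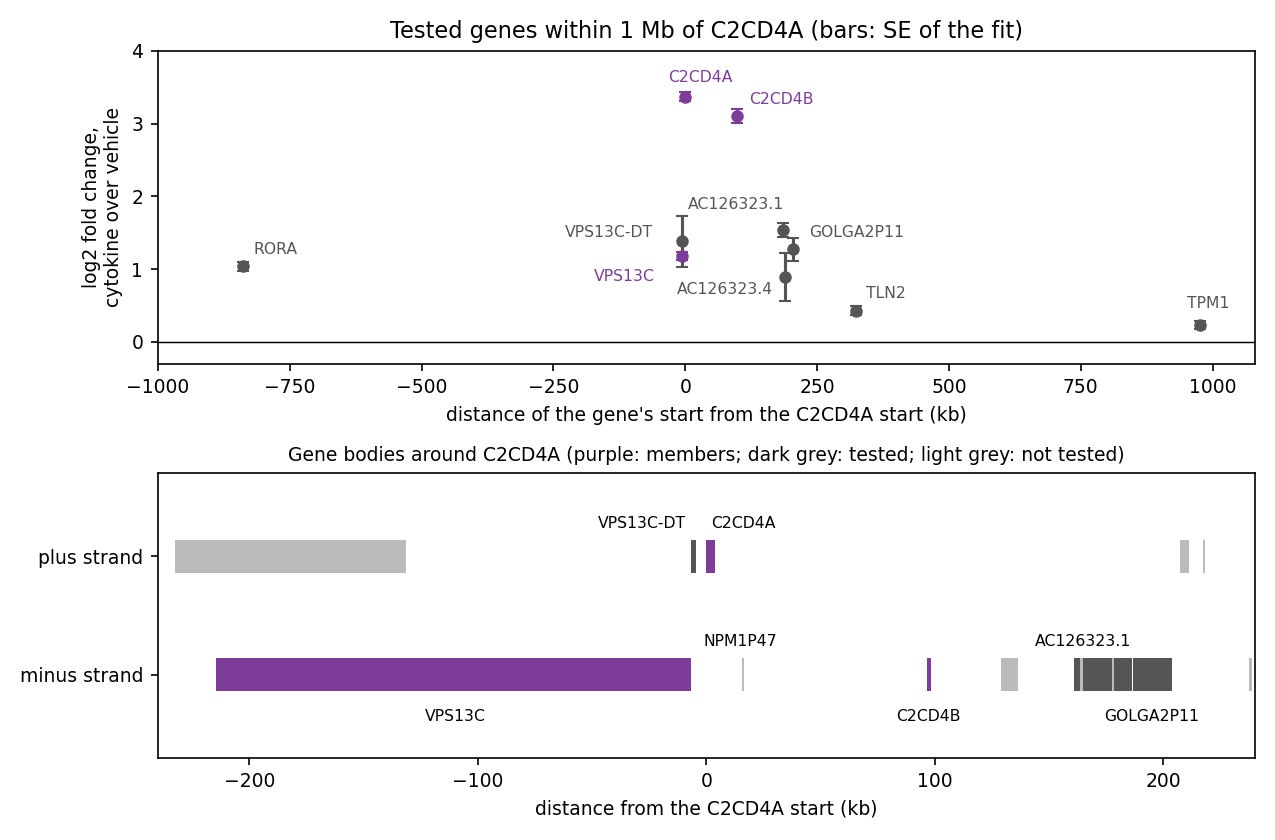
Top, log2 fold change of cytokine over vehicle for the tested genes within 1 Mb of C2CD4A, placed by the distance of their starts, with bars for the SE of the fit; bottom, gene bodies by strand close to C2CD4A. C2CD4A and C2CD4B stand above 3, and VPS13C, VPS13C-DT, RORA and the pseudogenes lie between 0.89 and 1.54.

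The relatives and partners of VPS13C changed in both directions. The list held the other VPS13 genes, further bridge-like lipid transfer genes, and VAPA, VAPB and RAB7A, partners that anchor VPS13C at membrane contacts. All 12 were tested, of which 5 rose, 4 fell and 3 did not pass, with a median log2 difference of -0.01. Of all genes tested 28.3% rose and 28.8% fell, with a median of -0.019. BLTP3A rose by 0.55, ATG2A, a lipid transfer protein of autophagosome growth, by 0.47, and RAB7A, the late endosome GTPase, by 0.41 (edgeR, adjusted p = 2.8e-08, 3.6e-10 and 2.5e-09). BLTP2, VPS13A and BLTP1 fell by 0.21, 0.19 and 0.18 (edgeR, adjusted p = 0.00021, 0.0036 and 0.037). The VPS13A call was lost without cytokine replicate 3 (edgeR, adjusted p = 0.0553), and the BLTP1 call with 5 of 13 alternatives, up to an adjusted p of 0.273. Without TMM factors, 3 of these genes rose and 7 fell, against 2980 higher and 8779 lower of all 17847 genes tested. VPS13D, ATG2B and BLTP3B had log2 differences of -0.04, -0.11 and 0.02 and did not pass (edgeR, adjusted p = 0.62, 0.11 and 0.86).

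Other genes named for C2 domains moved both ways, with 3 of 5 higher and 2 lower, against 28.3% higher and 28.8% lower among all genes tested. C2CD2, C2CD3 and C2CD2L rose by 0.64, 0.25 and 0.20, and C2CD6 and C2CD5 fell by 0.50 and 0.45 on the log2 scale (edgeR, adjusted p = 1.3e-06, 0.00056, 0.0034, 0.0021 and 3.0e-09). C2CD2L encodes TMEM24, a lipid transfer protein that acts in insulin secretion. With scaling by library size alone its log2 difference was -0.002 and that of C2CD3 0.048. In that setting 1 of the 5 genes rose and 2 fell, against 2980 higher and 8779 lower of all 17847 genes tested. The C2CD6 call was lost with DESeq2 (adjusted p = 0.0964).

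For scale, targets of each cytokine were set beside the members. Of 20 listed NF-kappaB and interleukin 1 targets, 17 were tested, of which 16 rose and TRAF1 did not pass at -0.18 (edgeR, adjusted p = 0.22), with a median log2 difference of 2.18, against 28.3% higher among all genes tested. ICAM1 is counted both here and among the interferon gamma targets. Without TMM factors 16 rose and 1 fell, against 2980 higher and 8779 lower of all 17847 genes tested. C2CD4A and C2CD4B lay above that median. ICAM1, an adhesion molecule, had 263 CPM in cytokine libraries and 1 count over the vehicle libraries, and CFB, complement factor B, had 23.5 CPM in cytokine libraries and 3 counts over the vehicle libraries. CXCL2, a chemokine, had 10.4 CPM in cytokine and 0.527 CPM in vehicle libraries. Of 20 interferon gamma targets, 19 were tested and all of them rose, against the same 28.3%. Their median was 8.24, the same with the 3 genes lacking any vehicle count set to their bound. Many genes of this list, and also CFB, had almost no vehicle counts and passed the count filter only through the cytokine libraries. Such genes could hardly be tested without a rise, so the shares and medians of both lists are partly set by the filter. C2CD4A, at 3.37, and C2CD4B, at 3.10, lay on either side of the lowest value among the interferon gamma targets, 3.16 for B2M. CXCL9, CXCL10 and GBP1 reached 2627, 4442 and 676 CPM in cytokine libraries and had 0, 1 and 0 counts over the vehicle libraries.

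Transcription factors of islet cells moved both ways. Of 14 listed, 12 were tested, of which 7 fell, 3 rose and 2 did not pass, with a median log2 difference of -0.29, against 28.8% lower and 28.3% higher among all genes tested. MAFA fell by 1.89 and ISL1 by 0.70 (edgeR, adjusted p = 1.7e-09 and 7.3e-15). FOXA2 and NKX6-1 rose by 0.28 and 0.12 (edgeR, adjusted p = 5.8e-05 and 0.027). Both calls were lost with scaling by library size alone, where NKX6-1 turned to -0.087. In that setting 0 of the list rose and 9 fell, against 2980 higher and 8779 lower of all 17847 genes tested. The NKX6-1 call was also lost without cytokine replicate 1 or vehicle replicate 3 (edgeR, adjusted p = 0.109 and 0.137) and with no count filter (0.054). Of 5 NFAT genes, which encode calcium-responsive factors apart from NFAT5, a factor that responds to tonicity, 3 were tested: NFATC4 fell by 0.79 (edgeR, adjusted p = 2.9e-05), NFAT5 rose by 0.31 (edgeR, adjusted p = 0.013) and NFATC3 did not pass. The NFAT5 call was lost with scaling by library size alone (edgeR, adjusted p = 0.332) and without vehicle replicate 2 (0.0687) or 3 (0.0558).

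Genes that beta cells normally keep low, often called disallowed, were listed because mouse C2cd4a has been tied to the control of such genes. Of 14 listed, 11 were tested, of which 7 rose, 2 fell and 2 did not pass, with a median log2 difference of 0.45. Among all genes tested 28.3% were higher and 28.8% lower. Not all of the 7 were low in vehicle libraries. Their levels there were 69.7 (CXCL12), 61.2 (LDHA), 42.3 (LMO4), 23.9 (ACOT7), 8.28 (ZFP36L1), 0.788 (HK1) and 0.259 CPM (TGM2). HK1, a hexokinase gene, averaged 4.48 ± 0.147 CPM in cytokine and 0.788 ± 0.557 CPM in vehicle libraries (SD, n = 3 each), a log2 difference of 2.21 with SE 0.248 (edgeR, adjusted p = 8.4e-09). Without vehicle replicate 3 the difference was 3.07. TGM2, a transglutaminase gene with 11 counts over the vehicle libraries, rose by 3.07, or by 4.45 without vehicle replicate 3, and ZFP36L1, which encodes an mRNA decay factor, by 0.99 (edgeR, adjusted p = 1.6e-08 and 2.1e-09). TGM2 passed the count filter only through the cytokine libraries, and HK1, with 33 counts over the vehicle libraries, at least partly so. Such genes could hardly be tested without a rise, so the count of rises in this list is partly set by the filter. SLC16A1, a lactate and pyruvate transporter, fell by 0.45 and CAT, catalase, by 0.37 (edgeR, adjusted p = 0.001 and 1.4e-05). With DESeq2 the SLC16A1 call was lost (adjusted p = 0.0669). Without TMM factors 6 genes of this list rose and 4 fell, against 2980 higher and 8779 lower of all 17847 genes tested.

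**Figure D4:**
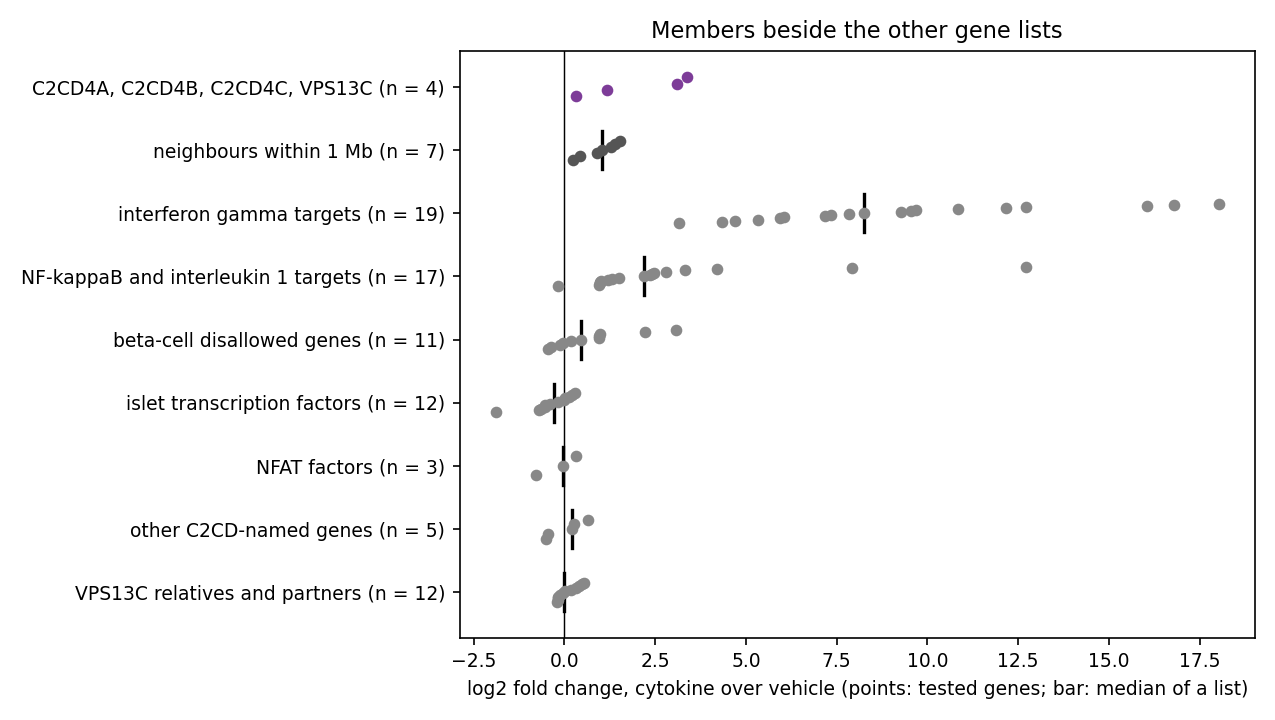
Log2 fold change of cytokine over vehicle for the 4 tested members (purple), the tested neighbours (dark grey) and the tested genes of each list (light grey), with a bar at the median of each list. C2CD4A and C2CD4B lie within the upper range of NF-kappaB and interleukin 1 targets. C2CD4A lies just above and C2CD4B just below the lowest interferon gamma target, B2M at 3.16. The values of both lists are partly set by the count filter.

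Genes with the most similar profile were found by the root mean square difference in log2 CPM over the 6 libraries, each gene being centred on its vehicle mean. Nearest to C2CD4A were IFIH1 at 0.0519, SAMHD1 at 0.0718, SYNPO2 at 0.0841, CSF1 at 0.0866 and ACSL5 at 0.102. IFIH1, which encodes a sensor of viral double-stranded RNA, averaged 149 CPM in cytokine and 14.3 CPM in vehicle libraries, close to C2CD4A in level as well as in change. Nearest to C2CD4B were CCDC68 at 0.123, SIK1 at 0.136, PTPRK at 0.158, TRAFD1 at 0.174 and IL12A at 0.184. ACSL5 and IL12A had rounded counts of 0 in every vehicle library, so their place rests on the prior count of 2 added before taking logs. C2CD4B stood 37th among 15162 genes with a symbol ranked by nearness to C2CD4A, at 0.291, and C2CD4A stood 41st from C2CD4B. With 2 groups of 3, such nearness mostly measures an equal size of change.

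**Figure D5:**
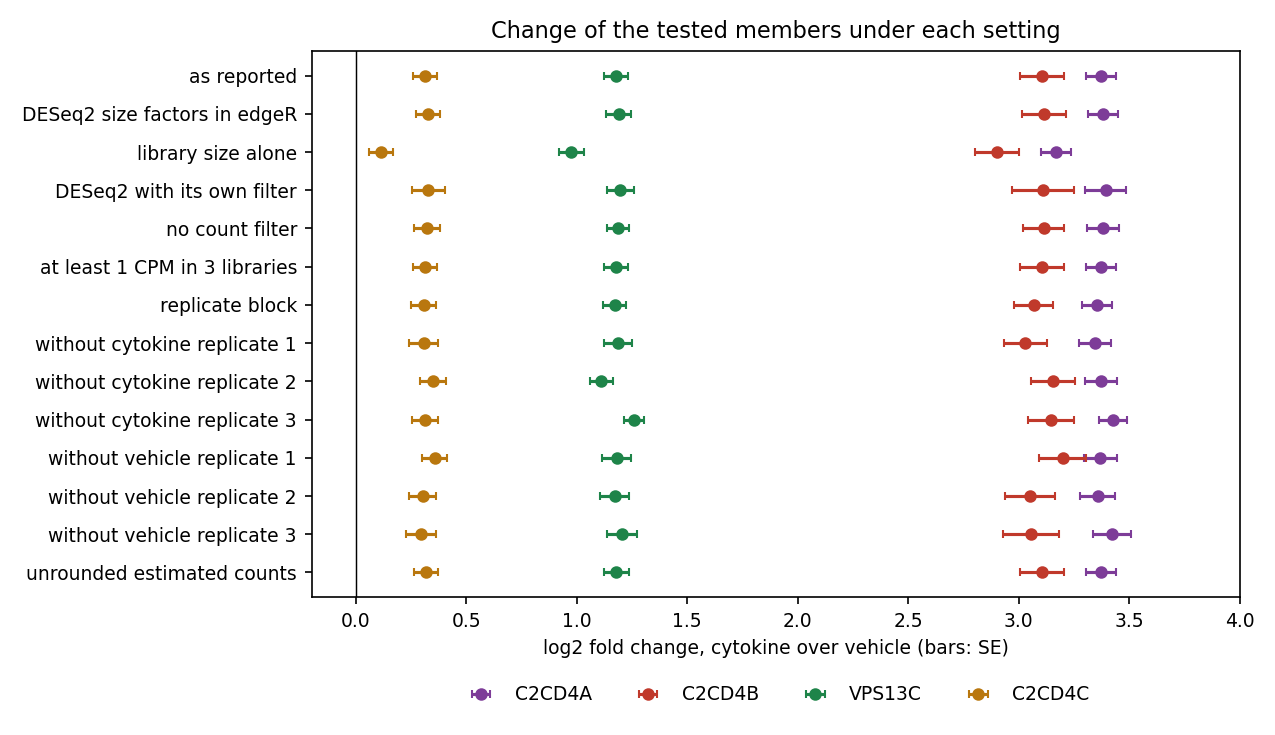
Log2 fold change of cytokine over vehicle with its SE for the 4 tested members as reported and under each of 13 alternatives. C2CD4A ranges from 3.17 to 3.43, C2CD4B from 2.90 to 3.20, VPS13C from 0.98 to 1.26 and C2CD4C from 0.11 to 0.36.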

How the data were processed

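Libraries were prepared from RNA isolated with a Nucleospin miRNA kit, using a strand-specific NEBNext Ultra II kit, per the labels' protocols. The submitters' processing notes name STAR 2.7.5a, HTSeq 0.12.4, cutadapt 2.10, Picard 2.23.2, MultiQC 1.9 and FastQC 0.11.9, with GRCh38, and give no roles. The authors deposited estimated counts per gene, not normalised; 67.3% to 73.5% of those above 0 lay within 0.005 of a whole number. Per the file headers the table also holds the authors' log2 fold change, F (a score), p-value and FDR, made with a tool not given in the sources used here. Columns named NT were taken as vehicle, since the remaining 3 are named for cytokine treatment and numbering matches the sample titles.

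Counts were rounded, filtered with filterByExpr (17847 genes left), scaled by TMM and tested with edgeR 4.0.16 in R 4.3.3 (robust quasi-likelihood, group alone, Benjamini-Hochberg over all genes tested, threshold 0.05). The SE was the log2 change divided by the square root of F. Members and lists were chosen with earlier results of these data known. The text names the members, from each list up to 3 higher and 3 lower genes by size of change with at least 1 CPM, every tested neighbour and the 5 nearest profiles. Other genes with values (TRAF1, B2M, NFATC3, VPS13D, ATG2B, BLTP3B, NPM1P47, CXCL12, LDHA, LMO4, ACOT7 and cell markers) were picked after their values were seen. Some genes the rule names are not reported here. Scripts were tested on simulated data. Sequences were compared with Biopython 1.88. Replicates of a group differed by a chi-square of 1.34 to 2.32 per gene, so none were merged. Alternatives were other scalings, DESeq2 1.42.0, other count filters, a replicate block, each library left out, a threshold of 0.01 and, chosen after seeing the data, unrounded counts.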

Additional observations from a re-analysis of the deposited data

How the results depend on the processing

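Over 13 alternatives the log2 differences of C2CD4A, C2CD4B and VPS13C kept their direction. That of C2CD4C was lowest with scaling by library size alone (0.113), where the gene was not called. Leaving out 1 library gave 3.34 to 3.43 for C2CD4A, 3.03 to 3.20 for C2CD4B, 0.30 to 0.36 for C2CD4C, 1.11 to 1.26 for VPS13C and 3.25 to 3.34 for the summed pair. Scaling by library size alone gave a median of -0.221 over all genes, against -0.019 with TMM. It called 2980 genes higher and 8779 lower, where TMM called 5057 and 5142, left 3 of 5 other C2CD-named genes called, and reversed C2CD2L (-0.002) and NKX6-1 (-0.087). DESeq2 with its own filter called 3356 genes lower. NFAT factors fell to 1 call at a threshold of 0.01 and ranged from 1 to 2 with a library left out. Counts of genes called with a library left out were 4586 to 5088 higher and 4369 to 4863 lower. Of the neighbours, 5 to 8 were called over 14 alternatives. C2CD4D had a value in only 2 alternatives, -1.93 with no count filter and -2.20 with DESeq2, which gave it no adjusted p.

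No pairing by replicate number was seen: same-numbered deviations correlated at 0.0141, -0.0450 and -0.0477, and unlike-numbered ones at -0.0117 to 0.0589. With 3 libraries per group, such values cannot show whether batches were shared. With the replicate block C2CD4A was 3.36, C2CD4B 3.07, C2CD4C 0.31, VPS13C 1.17 and the summed pair 3.27 on the log2 scale, and 5010 genes were called higher and 5101 lower. Few counts limit what can be said of C2CD4D, VPS13C-DT and the untested neighbours.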
